A study of Rattus norvegicus with 9 samples.

Results

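Oligodendrocyte and myelin genes were followed through sexual maturation in the hypothalamus of female rats. The set was 8 genes of the myelin sheath and of the cells that make it, Mbp, Mobp, Cldn11, Mal, Mag, Mog, Cnp and Ugt8. Members were the probe sets whose platform annotation gave 1 gene symbol, that of one of these genes. They came to 15 of 31042 probe sets, and the 8 genes stood among 14217 genes with such a symbol. Of the 15 probe sets, 14 passed the filter on dim probe sets and were tested, with at least 1 for every gene.

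RNA of the whole hypothalamus was measured on Affymetrix rat expression arrays, 1 animal per array. Juvenile females of day 26, which the labels call controls, gave 3 arrays (replicates 1, 2 and 3). Early pubertal females of day 29 gave 3 (replicates 7, 8 and 10), and late pubertal females of day 31 gave 3 (replicates 12, 14 and 20). All animals are labelled as developing normally, no treatment or genotype is given, the strain is not given in the sources used here, and the number of arrays limits the precision.

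Oligodendrocytes wrap axons of the central nervous system in many layers of membrane, the myelin sheath, which speeds conduction. A precursor cell leaves the cycle, passes through a newly formed stage and then makes large amounts of a small set of myelin proteins and of galactolipids, under transcription factors such as Sox10 and Myrf. In rodents most of this happens after birth, and new oligodendrocytes are still added in the juvenile and adult brain.

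Values are log2(signal + 16) after quantile normalization, where 1 unit is a doubling. The median deposited signal per array ran from 79.8 to 122, and trimmed means differed by up to 1.42 times between arrays, the lowest levels being early pubertal. Arrays correlated at r = 0.956 to 0.983 with each other. A probe set is called when its adjusted p in the limma fit over all 18625 tested probe sets is under 0.05. Levels of different probe sets are not compared, since each binds its target with its own strength.

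Promoter windows of RefSeq (assembly GRCr8), which run from 250 bases before to 50 after a gene's start, were available for 7 of the 8 genes, with 2 starts for Mbp, and none was used for Mog. The windows were searched on both strands for 6 short motifs. Sox factors bind a core of ACAAAG or, in a variant form, the core AACAAT, the core reported for Myrf is CTGGNAC, the E boxes searched were CAGCTG for one pairing of factors and, for another, CATCTG, and the TATA box was searched as TATAAA. At least 1 match stood in 7 of the 8 windows, 21 matches in all, and none overlapped another. Of the 21, 8 were copies of ACAAAG in the Mobp window. Singly, the 6 motifs stood in 11.7 to 18.8% of all windows, and the share of all windows with any of them was not counted. CTGGNAC stood in 5 windows (1 of Mbp, and those of Mag, Cnp, Cldn11 and Mal), while 18.2% of all 33469 windows hold it. ACAAAG stood in 4 windows (the other of Mbp, and those of Mag, Mobp and Cnp), against 18.8% of all windows. The Ugt8 window held none of the motifs. The median GC content of the members' windows was 65.0%, against 51.7% over all windows. A match describes letters only.

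Windows of 3 genes are shown because they hold the motifs of both factor families or the most copies of one. Each is given 5′ to 3′ on the gene's strand, with matches in capitals. Mobp lies on the plus strand at chr8:128746982-128747281, Mag on the minus strand at chr1:95290995-95291294, and Cnp on the plus strand at chr10:86011254-86011553.
Mobp: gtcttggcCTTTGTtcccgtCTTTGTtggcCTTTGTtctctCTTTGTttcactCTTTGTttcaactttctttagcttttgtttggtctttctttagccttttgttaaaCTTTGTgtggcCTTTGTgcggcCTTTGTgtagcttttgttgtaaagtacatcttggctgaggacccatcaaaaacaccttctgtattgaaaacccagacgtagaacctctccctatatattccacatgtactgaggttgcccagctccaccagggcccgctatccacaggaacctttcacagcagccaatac
Mag: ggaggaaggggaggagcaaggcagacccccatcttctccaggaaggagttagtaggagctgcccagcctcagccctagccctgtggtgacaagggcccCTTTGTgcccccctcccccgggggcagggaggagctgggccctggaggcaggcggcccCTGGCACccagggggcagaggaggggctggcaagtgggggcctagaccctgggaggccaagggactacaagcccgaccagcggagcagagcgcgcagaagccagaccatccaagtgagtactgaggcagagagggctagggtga
Cnp: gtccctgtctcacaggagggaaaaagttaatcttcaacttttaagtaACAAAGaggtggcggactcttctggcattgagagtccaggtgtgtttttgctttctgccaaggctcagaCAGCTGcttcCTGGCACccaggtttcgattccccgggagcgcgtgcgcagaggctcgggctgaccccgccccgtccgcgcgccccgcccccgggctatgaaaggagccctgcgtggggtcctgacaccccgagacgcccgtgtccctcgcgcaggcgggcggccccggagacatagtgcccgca
The Mobp window held 8 copies of ACAAAG, all read as CTTTGT on the gene's strand. At least that many were found in 3 of the 33469 windows, with a highest count of 10. The Mag window held 1 Sox core and 1 Myrf core, and the Cnp window held the ACAAAG core, the Myrf core and the CAGCTG E box once each.

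No change in the myelin genes was detected over the days sampled, and none of their probe sets was called in any comparison. Between early pubertal and juvenile animals, 0 of the 14 tested probe sets were called, where the share over all tested probe sets was 0%. The difference was above 0 in 9 and below 0 in 5, with a median of 0.04 log2 and a range of -0.14 to 0.16. An unadjusted p under 0.05 was reached by 0 of the 14, against 4.46% of all tested probe sets. No member had stages that did not overlap, against 8.30% of all tested probe sets. Between late pubertal and juvenile animals, 0 of 14 were called (0% of all tested), 8 were above 0 and 6 below, and the median was 0.00, with a range of -0.24 to 0.42. An unadjusted p under 0.05 was again reached by 0 of the 14, against 4.14% of all. Stages did not overlap for 1 of the 14, or 7.14%, against 11.4% of all tested probe sets. Between late and early pubertal animals, 0 of 14 were called (0% of all tested), 5 were above 0 and 9 below, and the median was -0.03, with a range of -0.31 to 0.47. None of those 14 had stages that did not overlap, against 11.3% of all. The first 2 comparisons share the juvenile arrays.

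These counts rest on probe sets of which several belong to the same gene. With each gene represented by its brightest probe set, the median difference of the 8 genes was 0.03 early pubertal minus juvenile, -0.01 late pubertal minus juvenile and -0.04 late minus early pubertal. At the deposited level, without normalization, the median of the 8 was -0.14 early pubertal minus juvenile, while that of all tested probe sets was -0.24. Late minus early pubertal, it was 0.12 there, against 0.22 over all tested probe sets. The split of signs follows the scaling: early pubertal minus juvenile, 5 of the 8 genes were above 0 after quantile normalization, 0 at the deposited level and 5 with arrays centred on the median. The same counts were 3, 7 and 1 late minus early pubertal, and late pubertal minus juvenile 4, 4 and 4.

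The spread within stages sets how wide the intervals of the differences are. The 95% interval of the difference lay within 0.5 log2 of 0 on both sides for 12 of the 14 probe sets early pubertal against juvenile, for 11 late pubertal against juvenile and for 11 late against early pubertal. Differences between stage means made up a median of 13.8% of the sum of squares over the 9 arrays (range 3.28 to 39.0% over the 14 probe sets), against a median of 21.0% over all tested probe sets. With 3 stages and 9 arrays, 25% on average falls between stages by chance alone. That is a mean, and the median by chance was not worked out, so the medians given here cannot be read against it. The median SD between animals of a stage was 0.148 for the members and 0.173 for all tested probe sets. The moderated F test of limma over the 3 stages called 0 of the 14, with a lowest adjusted p of 0.974, and 0% of all tested probe sets. An unadjusted F test p under 0.05 was reached by 0 members and by 4.22% of all tested probe sets. As this is RNA of bulk tissue, fewer oligodendrocytes and less myelin RNA per cell cannot be told apart.

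**Figure D1:**
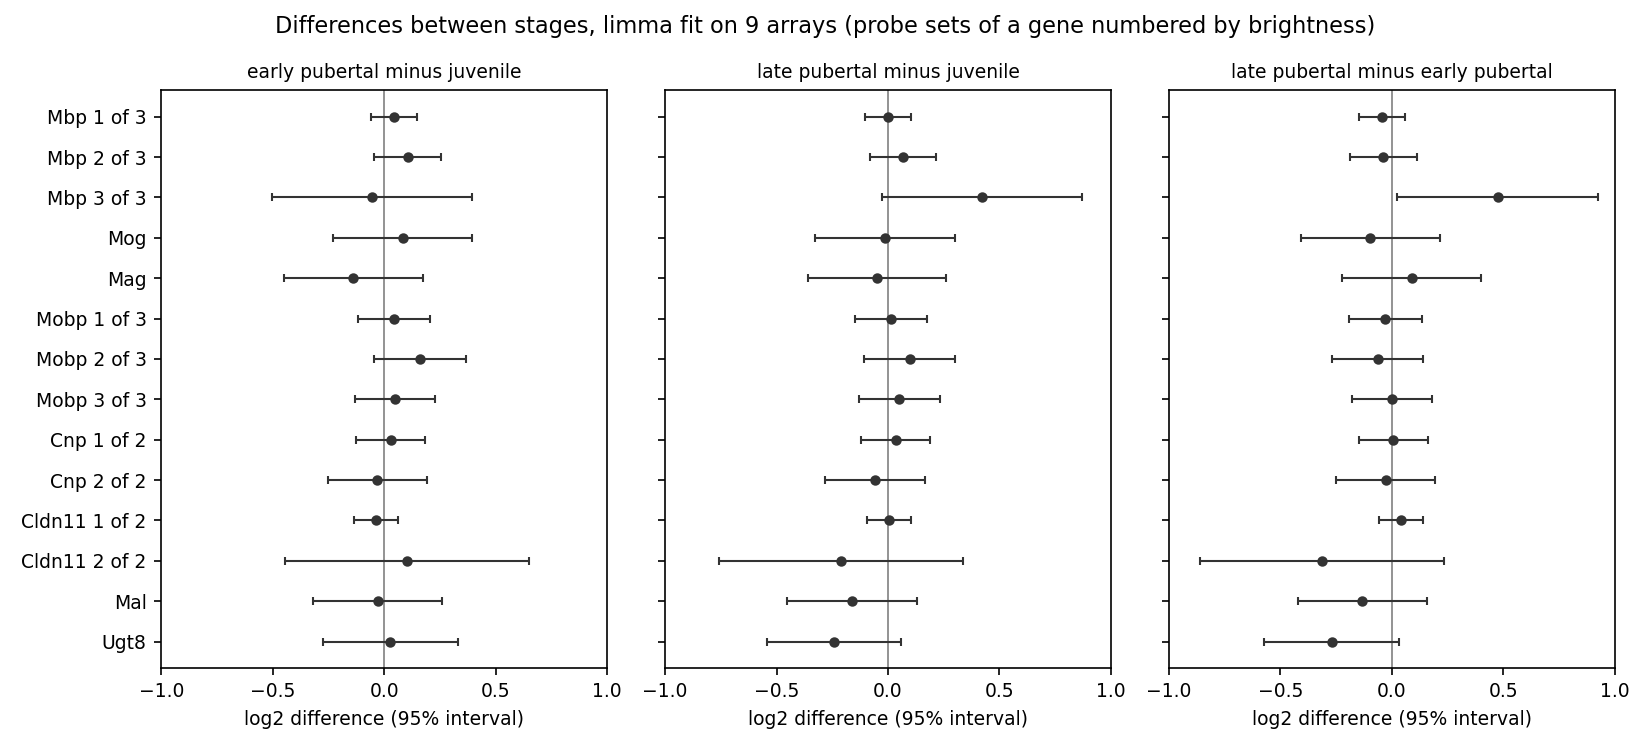
Differences between stages for the 14 tested probe sets, in log2 units, with points for the fitted difference and bars for its 95% interval. Every interval crosses 0 but 1, that of the third Mbp probe set late minus early pubertal (0.03 to 0.92), where the adjusted p is 0.914 in limma.

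Among the structural proteins, myelin basic protein (Mbp), which draws the cytoplasmic faces of the membrane together, was measured by 3 probe sets. The brightest, 1368810_a_at, read 13.01, 12.91 and 12.89 in the juvenile animals, 12.95, 12.98 and 13.01 in the early pubertal animals, and 12.98, 12.85 and 12.98 in the late pubertal animals. The stages lay on top of each other, with juvenile animals at 12.94 ± 0.064, early pubertal at 12.98 ± 0.028 and late pubertal at 12.94 ± 0.076 (SD, n = 3 each). Late pubertal minus juvenile, the difference was 0.00 ± 0.05 (SE), with a 95% interval of -0.10 to 0.10, or 0.930 to 1.075 fold. Its signal stood at 69.4 to 74.3% of the highest signal on each array, and whether the scanner's range compressed it was not tested. The second, 1387341_a_at, read 12.89, 12.67 and 12.72 in juvenile, 12.77, 13.01 and 12.82 in early pubertal, and 12.89, 12.82 and 12.78 in late pubertal animals. Its differences from juvenile animals were 0.11 early pubertal and 0.07 late pubertal, and the stages overlapped.

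The third Mbp probe set, 1383479_at, was the dimmest and moved furthest of the 14. It read 8.77, 8.98 and 8.95 in juvenile, 8.24, 9.22 and 9.09 in early pubertal, and 9.49, 9.18 and 9.31 in late pubertal animals. All late pubertal animals lay above all juvenile animals, while the early pubertal animals spanned both. The late pubertal minus juvenile difference was 0.42 ± 0.21 (SE; 95% interval -0.03 to 0.87), with an unadjusted p of 0.0639 and an adjusted p of 0.9998 in limma. Late minus early pubertal, it was 0.47 ± 0.21 (0.03 to 0.92), the only member with an unadjusted p under 0.05 (0.0402, adjusted 0.914, limma), where 5.21% of all tested probe sets had one. Early pubertal replicate 7, its lowest array, lay about 1 log2 unit below replicate 8 of the same stage. The 2 brighter Mbp probe sets showed no such difference, and over the 9 arrays the third correlated with them at r = 0.04 and 0.31.

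Mobp, which codes for a small basic protein of compact myelin, had 3 probe sets within a narrow band. The brightest, 1370434_a_at, read 12.83, 12.79 and 12.52 in juvenile, 12.87, 12.71 and 12.69 in early pubertal, and 12.74, 12.73 and 12.72 in late pubertal animals. Juvenile replicate 3 was lowest and the late pubertal animals were within 0.02 of each other. The differences were 0.04 early pubertal minus juvenile, 0.01 late pubertal minus juvenile and -0.03 late minus early pubertal, each with an SE of 0.07. Juvenile replicate 3 was also lowest on the other probe sets, at 11.95 on 1370500_a_at and 11.52 on 1368263_a_at, and their largest difference between stages was 0.16.

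Cldn11 codes for the claudin that forms the tight junctions between myelin layers, and its 2 probe sets did not follow each other between animals. The brighter, 1376711_at, read 12.52, 12.63 and 12.51 in juvenile, 12.51, 12.49 and 12.55 in early pubertal, and 12.54, 12.57 and 12.56 in late pubertal animals. It hardly varied, with differences of -0.04, 0.01 and 0.04 (SE 0.04 each) for early pubertal minus juvenile, late pubertal minus juvenile and late minus early pubertal. The dimmer, 1369609_at, read 10.73, 9.60 and 10.09 in juvenile, 10.07, 10.47 and 10.18 in early pubertal, and 10.05, 10.24 and 9.49 in late pubertal animals. It spanned 1.24 log2 units, or 2.36-fold, and most of that lay between animals of a stage. Its stage differences, in the same order, were 0.10, -0.21 and -0.31, each with an SE of 0.25.

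Mal, a membrane proteolipid of lipid raft traffic in myelinating cells, was read by 1387040_at at 10.98, 10.64 and 10.65 in juvenile, 10.59, 11.05 and 10.54 in early pubertal, and 10.69, 10.61 and 10.49 in late pubertal animals. Juvenile replicate 1 and early pubertal replicate 8 stood above the other 7 animals, and the stages overlapped. The differences were -0.03 early pubertal minus juvenile, -0.16 late pubertal minus juvenile and -0.13 late minus early pubertal (SE 0.13 each).

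Mag and Mog code for immunoglobulin-like surface proteins of the sheath, Mag on the innermost layer that faces the axon and Mog on the outermost. Mag, by 1368861_a_at, read 11.01, 10.71 and 10.64 in juvenile, 10.35, 10.93 and 10.66 in early pubertal, and 10.79, 10.88 and 10.54 in late pubertal animals. Mog, by 1398257_at, read 10.92, 10.74 and 10.25 in juvenile, 10.64, 10.90 and 10.62 in early pubertal, and 10.55, 10.74 and 10.58 in late pubertal animals. For both genes the animals of a stage lay further apart than the stage means. For Mag the differences were -0.14 early pubertal minus juvenile, -0.05 late pubertal minus juvenile and 0.09 late minus early pubertal. For Mog they were 0.08, -0.01 and -0.10 in the same order, and every SE of both genes was 0.14.

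Cnp and Ugt8 are the enzymes of the set. Cnp, a cyclic nucleotide phosphodiesterase of the cytoplasmic channels through the sheath, read 12.45, 12.31 and 12.15 in juvenile, 12.27, 12.43 and 12.30 in early pubertal, and 12.38, 12.29 and 12.33 in late pubertal animals on 1387897_at. The stages overlapped, with differences of 0.03, 0.03 and 0.01 (SE 0.07 each) for early pubertal minus juvenile, late pubertal minus juvenile and late minus early pubertal. Its second probe set, 1370693_a_at, gave -0.03, -0.06 and -0.03 in that order, with an SE of 0.10.

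Ugt8 makes galactosylceramide, the main glycolipid of myelin, and of the 8 representative probe sets it had the widest differences of late pubertal animals from both other stages, while its early pubertal minus juvenile difference was 0.03. On 1368858_at it read 10.30, 10.05 and 9.81 in juvenile, 9.82, 10.30 and 10.11 in early pubertal, and 9.76, 9.73 and 9.95 in late pubertal animals. Late pubertal replicates 14 and 12 were the lowest of the 9 animals, and replicate 20 lay inside the range of the other stages. Late pubertal minus juvenile, the difference was -0.24 ± 0.14 (SE; 95% interval -0.54 to 0.06, unadjusted p 0.107 in limma). Late minus early pubertal, it was -0.27 ± 0.14 (-0.57 to 0.03), with an unadjusted p of 0.0758 and an adjusted p of 0.914 in limma. The second Ugt8 probe set, 1368857_at, had deposited signals of 0 to 10 and was not tested.

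**Figure D2:**
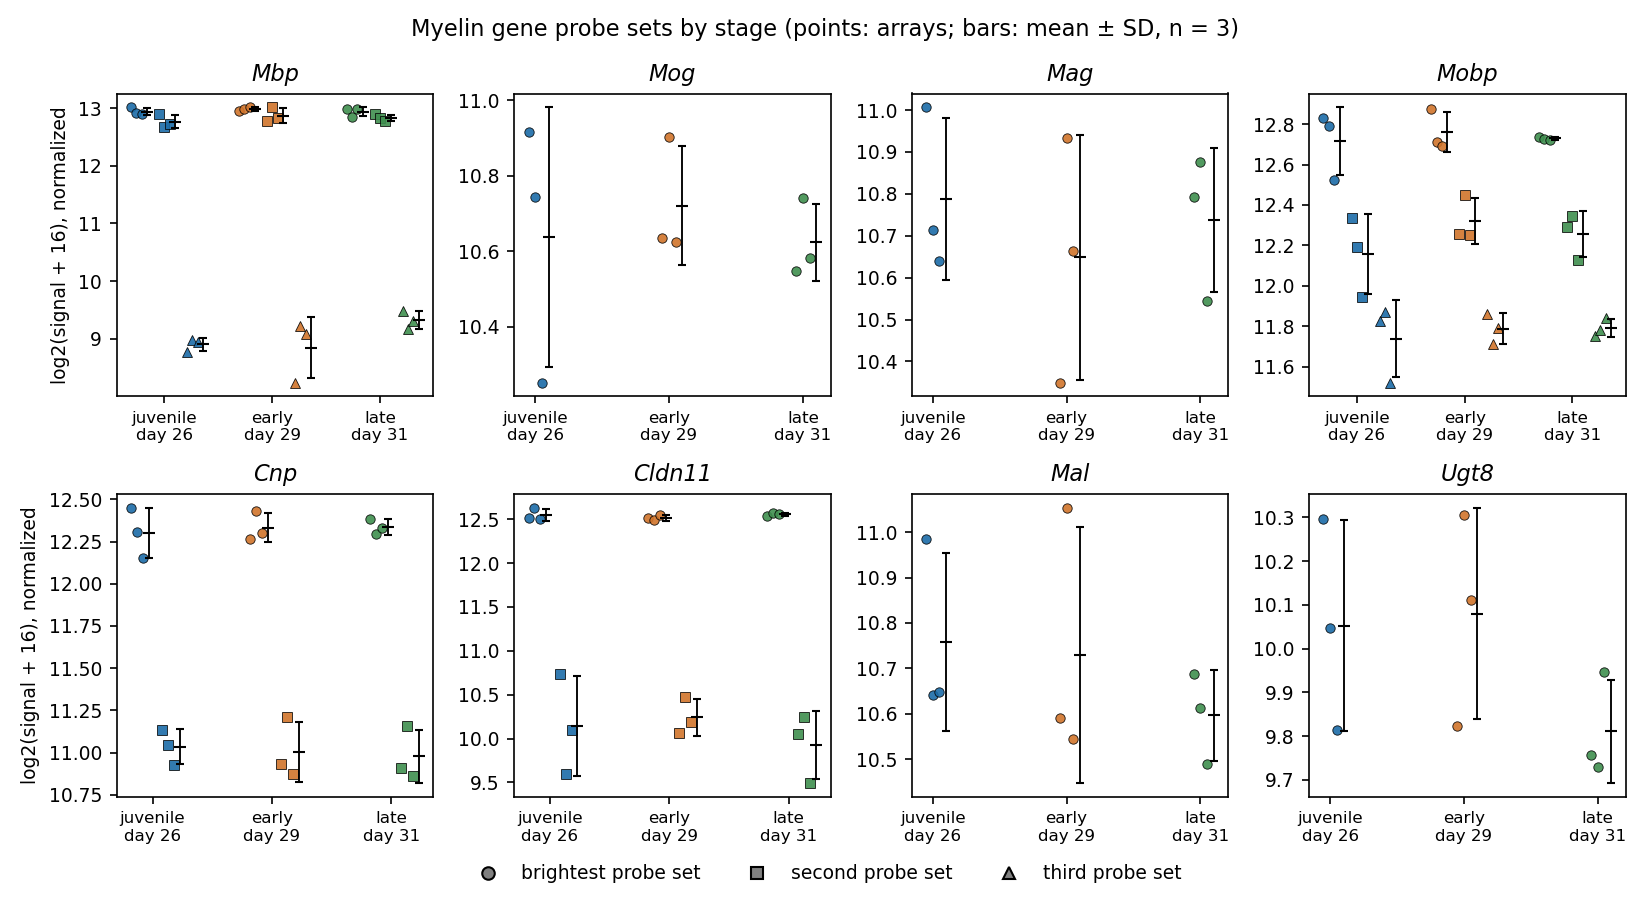
Normalized level, log2(signal + 16), of every tested probe set in each of the 9 animals, by stage at days 26, 29 and 31, with points for animals and bars for the stage mean ± SD (n = 3). The stages overlap for each probe set except Mbp 1383479_at, where the late pubertal animals (9.18 to 9.49) lie above the juvenile ones (8.77 to 8.98).

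Most of the variation in the set lay between arrays of the same stage. With 1 array per animal, differences between animals and differences between RNA preparations or arrays cannot be told apart. Taking each gene's deviation from its own mean over the 9 arrays and averaging the 8 genes put the juvenile animals (1, 2 and 3) at 0.17, 0.02 and -0.15, the early pubertal animals (7, 8 and 10) at -0.08, 0.15 and -0.01, and the late pubertal animals (12, 14 and 20) at -0.02, -0.03 and -0.06. The highest and the lowest animal were both juvenile. In juvenile replicate 1, 7 of 8 genes lay above their own mean and 4 reached their highest value, and in early pubertal replicate 8, 6 of 8 lay above. In juvenile replicate 3, 0 of 8 lay above and 3 had their lowest value. By stage, juvenile animals averaged 0.02 ± 0.16, early pubertal ones 0.02 ± 0.12 and late pubertal ones -0.04 ± 0.02 (SD, n = 3 each), and the difference in spread between stages was not tested.

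Pairs of genes were compared over the 9 animals, 28 pairs in all, with exact two-sided permutation tests. Pearson's r was above 0 in 22 pairs, with a median of 0.40 and a range of -0.50 to 0.82, and 0 pairs had an adjusted p under 0.05 while 4 had an unadjusted one. Cldn11 stood apart from the others: its 7 pairs had a median r of -0.10 with 2 above 0, while the other 21 had a median of 0.61 with 20 above 0. Mog and Cnp had the highest r, 0.82 (exact permutation p 0.00845, adjusted 0.220), with a Spearman's rho of 0.53 (p 0.148, adjusted 0.453). Without juvenile replicates 1 and 3, the animals farthest from the median of Mog, r was 0.38, so the relation rests on those animals. Mag and Mal had an r of 0.74 (exact permutation p 0.0219, adjusted 0.220) and a rho of 0.75 (p 0.0255, adjusted 0.373), and r was 0.77 without juvenile replicate 1 and early pubertal replicate 7. The pairs share arrays, and the values describe these 9 animals.

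Probe sets of the same gene did not always follow each other. Of 8 such pairs, Mobp 1370434_a_at and 1368263_a_at had the highest r, 0.89 (exact permutation p 0.00354, adjusted 0.0283), with a rho of 0.68 (p 0.0503, adjusted 0.403), and r was 0.56 without the 2 arrays farthest from the median. The Cnp pair had an r of 0.49. The Cldn11 pair had an r of -0.65 (exact permutation p 0.0624, adjusted 0.250) and a rho of -0.45 (p 0.230, adjusted 0.482). Without the 2 arrays farthest from the median, its r was -0.37. The Cldn11 result therefore depends on which probe set stands for the gene.

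A measure of RNA length moved with some of these probe sets. The ratio of the 3′ to the 5′ control probe set of beta-actin, which is higher where cDNA copies are shorter, was taken up after the values had been seen. The juvenile animals (1, 2 and 3) had ratios of 2.40, 3.16 and 2.62, the early pubertal animals (7, 8 and 10) 2.62, 2.14 and 2.86, and the late pubertal animals (12, 14 and 20) 2.82, 2.27 and 3.24. The stage means were close, with juvenile animals at 2.73 ± 0.388, early pubertal at 2.54 ± 0.367 and late pubertal at 2.78 ± 0.483 (SD, n = 3 each). Over the 9 arrays, Cldn11 1369609_at correlated with it at r = -0.86 (exact permutation p 0.00368, adjusted over 14 probe sets 0.0515) and rho = -0.83 (p 0.00827, adjusted 0.0579). Without the 2 arrays farthest from the median ratio, r was -0.62. Cnp 1370693_a_at had an r of -0.74 (exact permutation p 0.0297, adjusted 0.176) and Mal an r of -0.69 (p 0.0402, adjusted 0.176), while the brighter Cldn11 probe set had an r of 0.63 (p 0.0630, adjusted 0.176).

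Of the 14 probe sets, 6 had an r under -0.5, or 42.9%, against 14.8% of all tested probe sets. The animals with the lowest ratios, early pubertal replicate 8, late pubertal replicate 14 and juvenile replicate 1, include those with the highest average of the 8 genes. Juvenile replicate 3, with the lowest average, had a middling ratio of 2.62, and juvenile replicate 2, with a ratio of 3.16, had the third highest average. With the ratio as a covariate, the early pubertal minus juvenile difference of Cldn11 1369609_at was -0.06, against 0.10 without it, and 0 member probe sets were called.

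**Figure D3:**
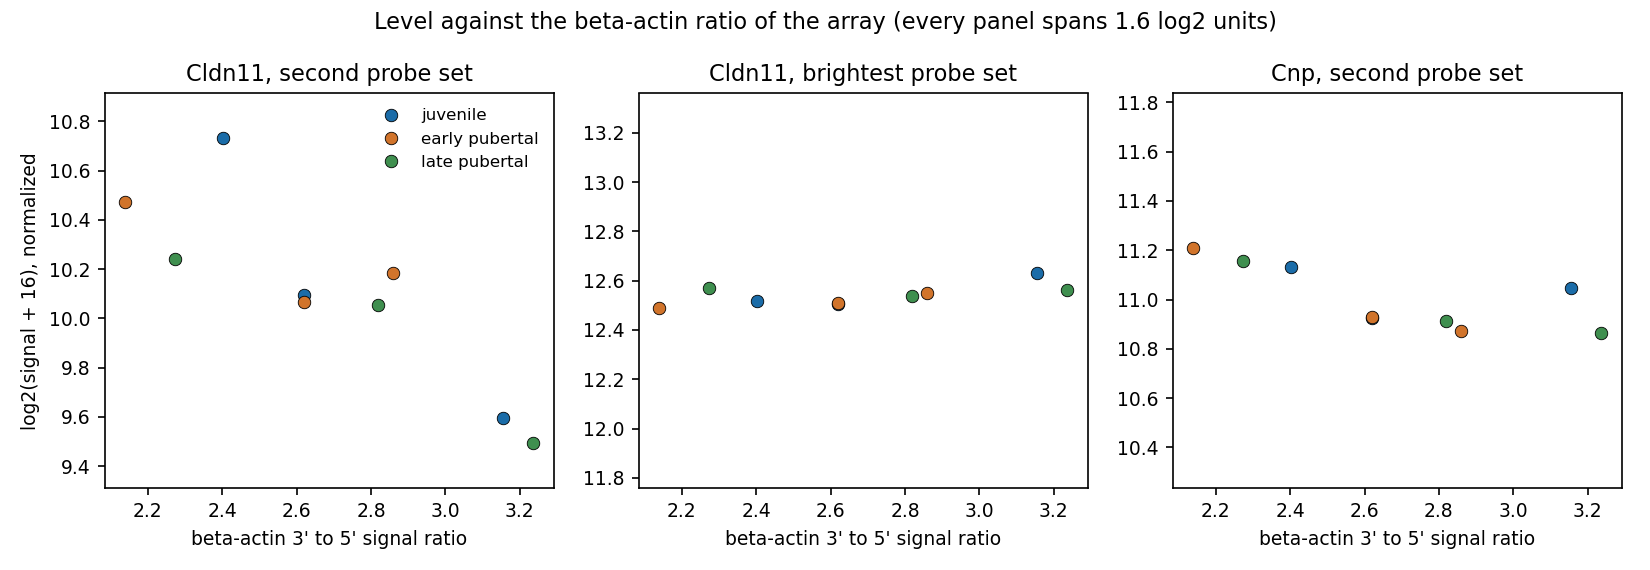
Normalized level of member probe sets against the beta-actin 3′ to 5′ signal ratio of the same array, 1 point per animal with stage by colour. Cldn11 1369609_at runs down as the ratio goes up (r = -0.86), and the brighter Cldn11 probe set runs up (r = 0.63).

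The genes most like the 8 across animals were named by their correlation with the average of the 8, each gene centred on its mean, over 9 arrays. Each member is itself part of that average, and deviations were not scaled, so genes that varied more weigh more in it. The SD between animals of a stage was 0.23 for Mog and Mag and 0.21 for Mal and Ugt8. It was 0.11 for Mobp, 0.10 for Cnp, 0.06 for Mbp and 0.04 for Cldn11. The members' r with the average was 0.90 for Mog, 0.89 for Cnp, 0.84 for Ugt8, 0.83 for Mal and 0.75 for Mag. For Mbp it was 0.48, for Mobp 0.45 and for Cldn11 -0.13. Here each gene was represented by its tested probe set with the highest r. On that choice the median r of 10592 other genes was 0.05, against -0.01 over all tested probe sets. The 10 highest were Gemin7 (r = 0.94), Vamp7 (0.94), Opalin (0.91), Gtf2f1 (0.90), Slc12a2 (0.89), Wdr53 (0.87), Auh (0.87), Usp2 (0.87), Fam131b (0.87) and Abca3 (0.86). Opalin, a glycoprotein of the oligodendrocyte membrane, is the 1 gene of these on the list of other myelin genes. It read 9.42, 9.27 and 8.69 in juvenile, 9.16, 9.58 and 9.07 in early pubertal, and 8.97, 9.11 and 8.95 in late pubertal animals. The same animals were high and low as in the set, which follows from its choice by r. Other probe sets of Gtf2f1 had an r of -0.28 and 0.27, that of Usp2 -0.27 and that of Abca3 -0.35, so these 3 names depend on 1 probe set. With this many genes and 9 arrays, high values arise without any link, and no p is given.

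**Figure D4:**
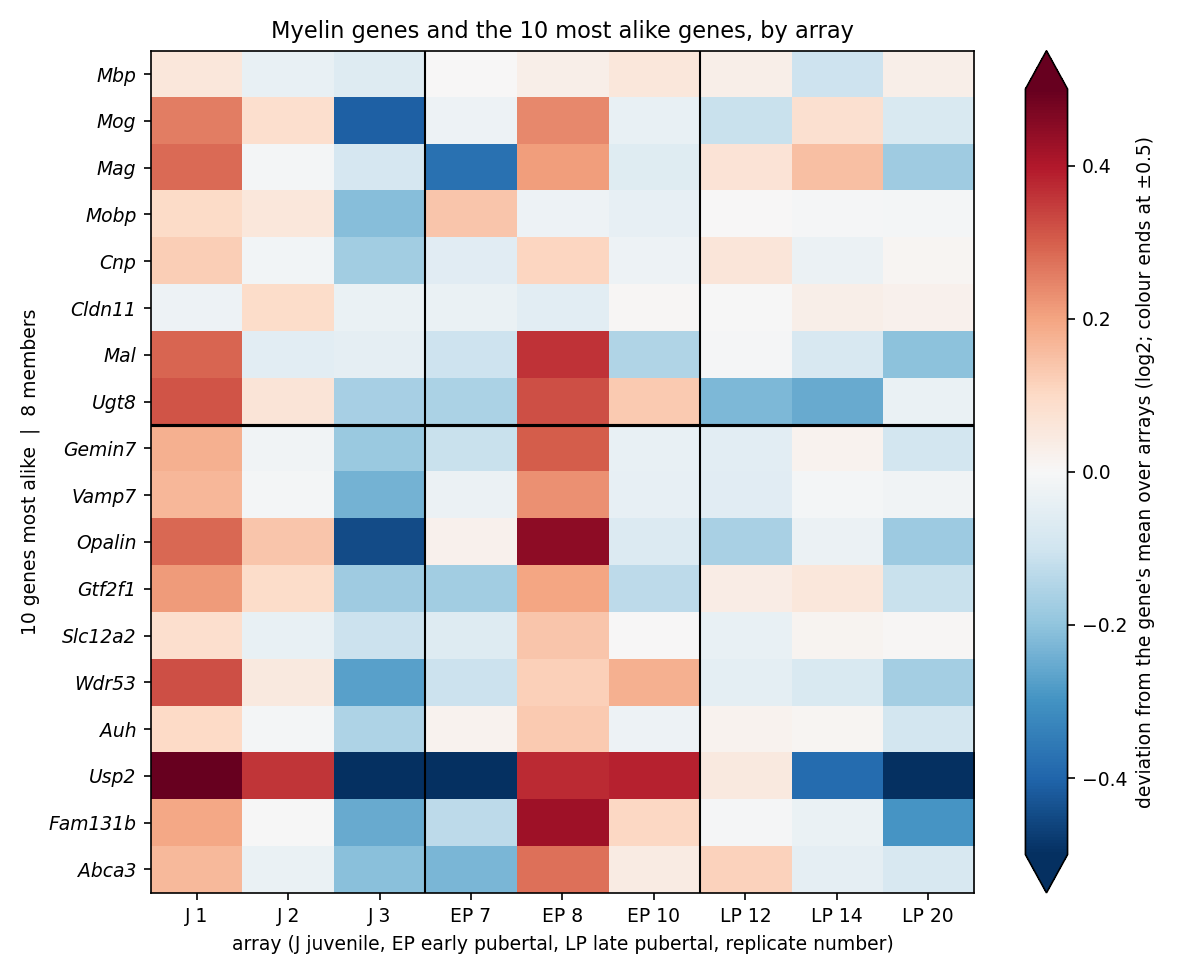
Deviation of each gene from its own mean over the 9 arrays, in log2 units, for the 8 members and the 10 genes most like their average, with animals in columns by stage and colour limited to 0.5 on either side. Juvenile replicate 1 and early pubertal replicate 8 are high and juvenile replicate 3 is low in most rows, with member averages of 0.17, 0.15 and -0.15. The 10 genes were chosen by their likeness to the members' average, so their rows repeat its pattern by choice.

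Other genes of the sheath and of mature oligodendrocytes were followed in the same way. Of 40 listed genes, 36 were tested and 0 were called in any comparison. Early pubertal minus juvenile, 25 were above 0 and 11 below, with a median of 0.08, and late pubertal minus juvenile, 22 were above and 14 below, with a median of 0.09. The median of all 10600 tested genes was 0.00 in both. Late minus early pubertal, 16 were above and 20 below, with a median of -0.01. At the deposited level 4 were above 0 and 32 below early pubertal minus juvenile (median -0.16), 22 above and 14 below late pubertal minus juvenile (median 0.06), and 35 above and 1 below late minus early pubertal (median 0.21). Their correlation with the average of the 8 genes was above 0 for 31 of the 36, with a median r of 0.36. Averaging the normalized deviations of the 36 genes put juvenile replicate 3 lowest of all animals, at -0.24. Juvenile replicate 1 was the highest, at 0.08, and juvenile replicate 2 had 0.02. Pubertal animals ran from -0.06 (early, replicate 10) to 0.07 (late, replicate 14). The low juvenile level of this list thus rests on juvenile replicate 3.

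On that list, 3 of the 36 genes had all pubertal animals of both stages above all juvenile animals, as had 1.14% of all tested probe sets, and the list's share was not tested against that. Cryab, a small heat shock protein, read 9.28, 9.23 and 8.75 in juvenile, 9.29, 9.38 and 9.67 in early pubertal, and 9.55, 9.51 and 9.53 in late pubertal animals. Its differences from juvenile animals were 0.36 ± 0.14 early pubertal and 0.44 ± 0.14 late pubertal (SE), with an adjusted F test p of 0.974 in limma. Hapln2, a link protein of the matrix at nodes of Ranvier, was 0.26 ± 0.13 above the juvenile level in early and 0.36 ± 0.13 in late pubertal animals, and Plekhb1 was 0.25 ± 0.08 and 0.18 ± 0.08 above it in early and late pubertal animals. Neither was called, with an adjusted F test p of 0.974 each in limma. Ppp1r14a, an inhibitor of myosin phosphatase, differed by 0.16 ± 0.20 early pubertal and 0.44 ± 0.20 late pubertal. Juvenile replicate 3 was the lowest animal for each of these genes. It lay at -0.61 (Cryab), -0.47 (Hapln2), -0.25 (Plekhb1) and -0.72 (Ppp1r14a) from the gene's mean. For Cryab, the lowest pubertal animal, early pubertal replicate 7, read 9.288, and the highest juvenile animal, replicate 1, read 9.283.

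The transcription factors of the lineage had 11 tested genes of 12, with 0 called, and 4 above 0 and 7 below in each comparison. The medians were -0.09 early pubertal minus juvenile, -0.07 late pubertal minus juvenile and -0.03 late minus early pubertal, where the deposited level put 11 of 11 above 0. Sox10, which drives myelin genes directly, differed from juvenile animals by -0.08 early pubertal and -0.07 late pubertal. Myrf, needed for the mature state, differed by 0.04 and -0.01 in early and late pubertal animals, Olig1 by -0.09 and -0.09, and Olig2 by 0.11 and 0.03. The smallest F test p values were those of Nkx2-2 (-0.19 early and -0.29 late pubertal minus juvenile), Zfp488 (-0.33 and -0.23), Zeb2 (-0.21 and -0.25) and Tcf7l2 (-0.17 and -0.12), all factors of oligodendrocyte differentiation. Nkx6-2, singled out after its values were seen, lay above the juvenile mean, by 0.31 ± 0.28 early and 0.24 ± 0.28 late pubertal (SE). That rests on juvenile replicate 3. Juvenile replicates 1, 2 and 3 read 6.79, 6.93 and 5.67. Early pubertal animals read 6.78, 6.70 and 6.85, and late pubertal animals 6.83, 6.60 and 6.69.

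Markers of precursors and newly formed oligodendrocytes had 9 tested genes of 14, with 0 called. Early pubertal minus juvenile, 1 was above 0 and 8 below, with a median of -0.05, and late pubertal minus juvenile, 2 were above and 7 below, with a median of -0.09. Pdgfra, the growth factor receptor that marks precursors, differed from juvenile animals by -0.04 in both pubertal stages, and Cspg4 lay under the filter. Sox6, which holds precursors undifferentiated, differed by -0.30 ± 0.16 early and -0.34 ± 0.16 late pubertal, Cspg5 by -0.40 ± 0.26 and -0.53 ± 0.26, Lhfpl3 by -0.20 ± 0.09 and -0.12 ± 0.09, and Enpp6, a mark of newly formed cells, by -0.23 ± 0.15 and -0.09 ± 0.15 (SE). These 4 had the smallest F test p of the list. Tnr and Vcan, which code for matrix proteins and were singled out after their values were seen, went the other way at the late stage, by 0.32 ± 0.24 and 0.20 ± 0.22 late pubertal minus juvenile (SE).

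Axonal and nodal partners of the sheath had 11 tested genes of 12, with 0 called. Early pubertal minus juvenile, 2 were above 0 and 9 below (median -0.08), and late pubertal minus juvenile, 4 were above and 7 below (median -0.13). Ank3, the ankyrin that anchors channels at nodes, read 9.86, 9.96 and 9.77 in juvenile, 9.27, 9.79 and 9.44 in early pubertal, and 9.46, 9.60 and 9.21 in late pubertal animals. Late pubertal animals lay below all juvenile ones, with a difference of -0.44 ± 0.14 (SE). Cntnap1, the axonal part of the paranodal junction, differed by -0.62 ± 0.21 late pubertal minus juvenile, Nfasc, its nodal and glial partner, by -0.28 ± 0.12, and Kcna1, a potassium channel beside the paranode, by 0.22 ± 0.15. Each of these 4 had an adjusted F test p of 0.974 in limma.

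Genes that make and turn over the sphingolipids of the sheath had 11 tested of 14, with 0 called, and medians of 0.02 early pubertal minus juvenile, 0.07 late pubertal minus juvenile and 0.08 late minus early pubertal, the first being -0.24 at the deposited level. Asah1, an acid ceramidase, differed by 0.29 ± 0.11 late minus early pubertal, Kdsr, an early step of ceramide synthesis, by 0.28 ± 0.17, Elovl6, a fatty acid elongase, by 0.13 ± 0.10, and Ugcg, which makes glucosylceramide, by -0.36 ± 0.21 (SE).

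**Figure D5:**
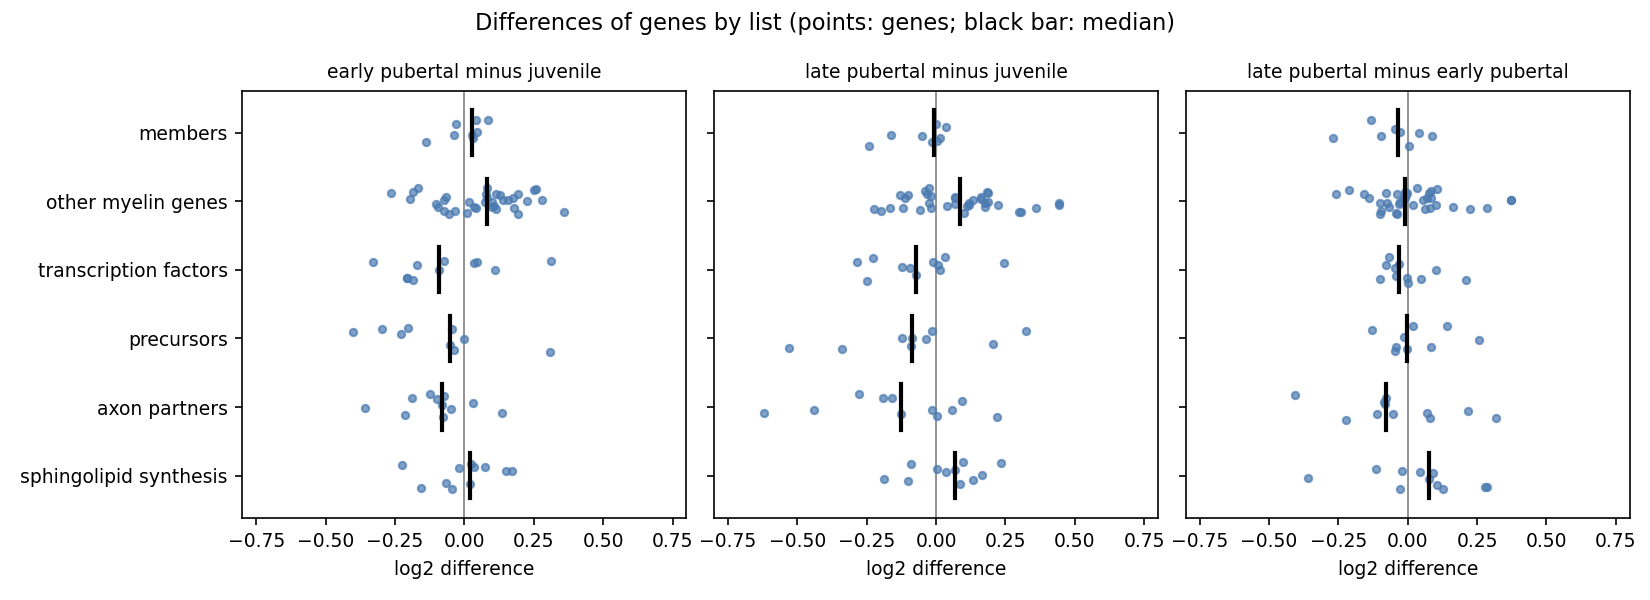
Differences between stages of the genes on each list, in log2 units, 1 point per tested gene (its brightest probe set), with the list median marked. The 8 members run from -0.27 to 0.09 over the 3 comparisons, where all 14 of their probe sets run from -0.31 to 0.47, and the precursor list runs from -0.53 to 0.32.

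Markers of other cells that a dissected hypothalamus can hold were set beside these values. Leptomeningeal markers lay above the juvenile level for 14 of 14 genes in both pubertal stages, with medians of 0.19 early and 0.28 late pubertal, while at the deposited level 4 of 14 early and 14 of 14 late pubertal lay above it. Averaged over these genes, juvenile replicates 1, 2 and 3 deviated from the genes' means by -0.23, -0.05 and -0.22. Early pubertal replicates 7, 8 and 10 stood at -0.06, -0.16 and 0.33, and late pubertal replicates 12, 14 and 20 at 0.03, 0.24 and 0.12. Early pubertal replicates 7 and 8 thus lay below juvenile replicate 2. Fmod and Slc13a3 differed by 0.40 and 0.54 late pubertal minus juvenile. Astrocyte markers had medians of 0.05 and 0.06 above the juvenile level (Aldh1l1 0.33 and 0.31, Ntsr2 0.05 and 0.16, in early and late pubertal animals), and at the deposited level the early pubertal median turned to -0.13, with 12 of 15 below 0. Neuronal markers had medians of -0.07 and -0.12 (Slc32a1 -0.06 and -0.40, Rbfox3 -0.20 and 0.00), and microglial ones -0.10 and -0.20 (C1qb 0.41 and -0.19, Tmem119 -0.56 and -0.48).

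Endothelial markers had medians of 0.04 early pubertal and -0.16 late pubertal (Kdr -0.29 and -0.32, Esam 0.15 and -0.22). Choroid plexus markers, with 4 tested genes of 10, had 0.06 and 0.23 (Prlr -0.14 and 0.28, and Enpp2, which oligodendrocytes also express, 0.10 and 0.18), and 0 genes of any of these lists were called. At the deposited level the early pubertal medians of the endothelial and choroid plexus markers turned to -0.21 and -0.16. Of 8 Schwann cell markers, which would mark peripheral nerve, 2 were tested, Pmp22 and Drp2, and these differed by 0.07 and 0.21 late pubertal minus juvenile. The part of these cells in the values of the myelin genes was not tested.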

How the data were processed

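The deposited table holds a linear MAS5 signal intensity for every probe set and array, per the submitters' processing notes. No source used here gives the MAS5 version or target level. Stages and replicate numbers came from the titles and source names. Each array holds the hypothalamus of 1 rat, per the labels.

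Of 31099 probe sets, 57 controls were left out. Of the other 31042, 20826 have 1 gene symbol, 436 have several and 9780 are unnamed here. Through their gene identifier, 20758 matched a current record, and 0 symbols changed. Trimmed means (2% off each end) differed between arrays, so log2(signal + 16) values were quantile-normalized. The 18625 probe sets above the 40th percentile of mean level, 14268 of them with 1 symbol, were fitted in limma 3.58.1 (R 4.3.3) with a mean for every stage and a prior that follows the intensity (degrees of freedom 5.80 from the prior, 6 residual). Tests were two-sided, with Benjamini-Hochberg adjustment at 0.05 within each comparison over all tested probe sets. The fit was tested on simulated data. The constant shrinks log2 differences where signals are low. Correlations used exact permutation (SciPy 1.17.1), and figures Matplotlib 3.10.9. No set test was run.

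The members and lists were chosen with earlier results of these data known. Named genes were all members, up to 4 genes with the smallest F test p of each myelin-related list and up to 2 of each other list, Sox10, Olig1, Olig2, Myrf, Pdgfra and Cspg4 where tested, and the 10 genes most like the members. The brightest tested probe set stood for its gene, except in the search for the 10 genes most like the members, where the most alike probe set did. Alternatives were constants of other size, deposited levels, centring by medians, other filters and priors, array weights, fits to the 6 arrays compared, averaging a gene's probe sets, and leaving out each array.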

Additional observations from a re-analysis of the deposited data

How the results depend on the processing

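No member probe set was called under any alternative tried. No paired analysis was possible because the stages share no replicate number. Over all tested probe sets, the deposited level called 10 early pubertal minus juvenile, 1 late pubertal minus juvenile and 21 late minus early pubertal, against 0 in each after normalization. Array weights called 1 late pubertal minus juvenile, and leaving out 1 array at a time called 0 to 1, the 1 without juvenile replicate 2. The medians of the 8 genes at the deposited level were -0.14 early pubertal minus juvenile and 0.12 late minus early pubertal, beside medians of -0.24 and 0.22 over all tested probe sets.

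Differences that were not called changed sign as follows, and the cause was not tested. At the deposited level, early pubertal minus juvenile, they were -0.055 for Mbp 1368810_a_at, -0.15 for Mog, -0.022 for Mobp, -0.10 for Cnp, -0.23 for Ugt8 and -0.14 for Cldn11 1369609_at. Late minus early pubertal, they were 0.14 for Mbp 1368810_a_at, 0.10 for Mog, 0.10 for Mobp and 0.072 for Mal. With arrays centred on the median, early pubertal minus juvenile, Cldn11 1376711_at had 0.079 and Ugt8 -0.015, and late minus early pubertal, Cnp had -0.049 and Cldn11 1376711_at -0.023. With array weights, early pubertal minus juvenile, Mbp 1383479_at had 0.019 and Cldn11 1369609_at -0.036, and Mog had 0.061 late pubertal minus juvenile. With the beta-actin ratio as a covariate, chosen after seeing the data, Cldn11 1369609_at had -0.061 early pubertal minus juvenile and Mbp 1368810_a_at -0.0020 late pubertal minus juvenile. With a gene's probe sets averaged, Cnp had -0.00071, -0.012 and -0.011 and Cldn11 0.032, -0.10 and -0.13 for early pubertal minus juvenile, late pubertal minus juvenile and late minus early pubertal, and Mbp had 0.13 late minus early pubertal.

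Leaving out 1 array at a time changed the sign of 21 uncalled differences. Early pubertal minus juvenile, they ran from -0.19 to 0.085 for Mal, -0.058 to 0.0034 for Cldn11 1376711_at, -0.17 to 0.40 for Cldn11 1369609_at, -0.11 to 0.22 for Mog, -0.056 to 0.10 for Mobp, -0.046 to 0.10 for Cnp, -0.092 to 0.16 for Ugt8, -0.28 to 0.011 for Mag and -0.24 to 0.25 for Mbp 1383479_at. Late pubertal minus juvenile, they ran from -0.21 to 0.13 for Mog, -0.12 to 0.060 for Mag, -0.017 to 0.048 for Cldn11 1376711_at, -0.48 to 0.085 for Cldn11 1369609_at, -0.023 to 0.047 for Mbp 1368810_a_at, -0.085 to 0.072 for Mobp and -0.042 to 0.11 for Cnp. Late minus early pubertal, they ran from -0.060 to 0.23 for Mag, -0.064 to 0.027 for Mobp, -0.027 to 0.055 for Cnp, -0.23 to 0.030 for Mal and -0.065 to 0.00013 for Mbp 1368810_a_at. The intervals given hold the differences that 3 animals a stage leave possible, and the smallest difference that could have been called was not worked out.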
